A study of Mus musculus with 7 samples.

Results

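The 4 WT samples of a series of 7 were examined, chosen by their genotype label alone, and the other 3 samples, from Trpc1-/- mice, entered no value. All were RNA-Seq samples of the right knee of male C57BL/6J mice. Destabilization of the medial meniscus (DMM), an operation that loosens the meniscus and so leads to osteoarthritis, was done at 10 weeks of age, and the knees were collected 2 weeks later. No sham-operated or unoperated knee is among the samples, so the values describe joints after DMM and not a change caused by it. Each sample was a pool of tissue from 2 to 3 mice, so the spread between samples is a spread between pools, within which single animals cannot be seen. The labels name the tissue knee articular cartilage, taken from femoral head and tibial plateau, and the Methods of the study add subchondral bone. The Methods also count 3 WT samples, whereas the labels give 4, and the labels were followed. From 300 ng of total RNA a stranded library was made after depletion of ribosomal RNA with RiboZero, which leaves RNA without a poly(A) tail in the library. The question put to these data was which genes and which tissues took the counts in a WT joint sample, and which genes differed most between samples of 1 genotype.

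Articular cartilage is built by chondrocytes, which lay down fibrils of collagen II together with the minor collagens IX and XI and fill the space between them with the proteoglycan aggrecan. Beneath lies calcified cartilage, where hypertrophic chondrocytes make collagen X, and then subchondral bone, where osteoblasts make collagen I and osteocalcin, osteocytes sit in the matrix, and osteoclasts resorb it. Bone encloses marrow, which forms red cells rich in globin mRNA and neutrophils rich in granule protein mRNA, together with lymphocytes, megakaryocytes, fat cells, and sinusoid vessels. A joint surface that is cut or scraped with its bone therefore yields RNA from all of these, and muscle, tendon, and synovium lie next to it.

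WT replicate 1 stood apart from the other 3 and is named wherever a result rests on it. Over all genes WT replicates 1 to 4 had total counts of 52142451, 99831099, 116815517, and 75284143. At a count of 3, taken as the smallest signal, this gave floors of 0.0575, 0.0301, 0.0257, and 0.0398 CPM, the counts of a gene per 1000000 counts of its sample, which cover counting error only. Over the 9840 genes with a mean of at least 10 CPM, the median absolute log2 difference was between 0.35 and 0.39 in the 3 pairs of samples that included WT replicate 1. It was between 0.0684 and 0.102 in the other 3 pairs. The library names give WT replicates 1 and 2 neighbouring numbers, and WT replicates 3 and 4 another neighbouring pair, so the sample that stood apart shares its number range with one that did not. The labels do not say what these numbers stand for.

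Genes of the nuclear chromosomes that code for protein took the most counts, 57.0, 71.9, 72.3, and 71.1% in WT replicates 1 to 4. The pair of mitochondrial ribosomal RNA genes took 21.3, 13.8, 13.2, and 13.4%. Genes annotated as misc_RNA, which include 7SL, the RNA of the signal recognition particle, and 7SK, which holds back transcription elongation, took 14.2, 8.20, 8.83, and 9.54%. WT replicates 2 to 4 lay close together in all 3 classes, whereas WT replicate 1 was lowest in protein-coding and highest in both classes of noncoding RNA. The 13 protein-coding genes of the mitochondrial genome, which encode subunits of the respiratory chain, took 1.05% ± 0.118 (SD, n = 4). Small nuclear RNAs of the spliceosome took 0.814% ± 0.221 (SD, n = 4), small nucleolar RNAs, which guide the modification of ribosomal RNA, 0.267% ± 0.0739 (SD, n = 4), long intergenic noncoding RNAs 1.13% ± 0.217 (SD, n = 4), and pseudogenes 1.06% ± 0.0637 (SD, n = 4). Cytoplasmic ribosomal protein genes took 1.27, 2.08, 2.28, and 2.13% and the histone cluster genes, whose mRNAs mostly lack a poly(A) tail, 0.606, 1.40, 1.56, and 1.35%. Both of these classes of short mRNAs were lowest in WT replicate 1.

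**Figure D1:**
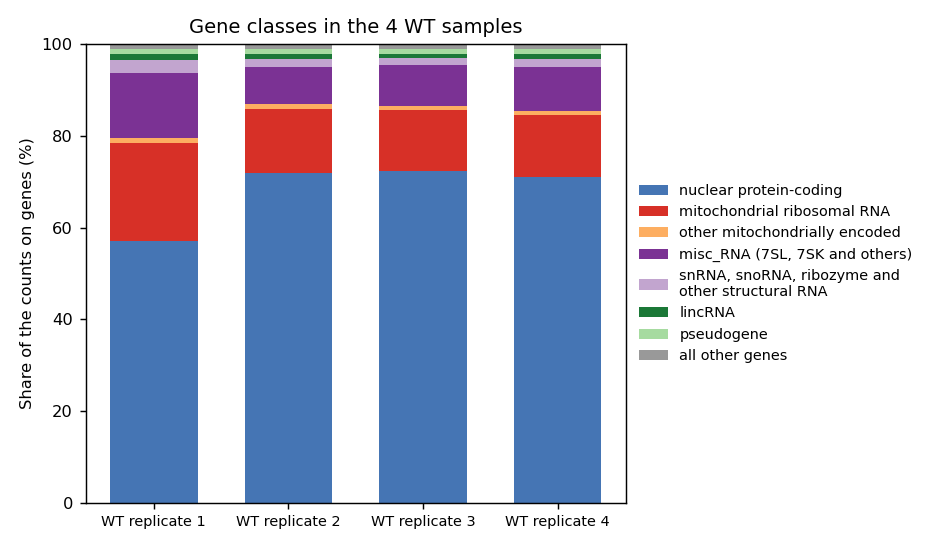
Stacked bars give the share of the counts on genes, in percent, taken by each gene class in each of the 4 WT samples. Nuclear protein-coding genes hold from 71.1% to 72.3% in WT replicates 2 to 4 and 57.0% in WT replicate 1, and mitochondrial ribosomal RNA and misc_RNA fill most of the rest.

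Few genes took a large part of the counts. The fewest genes that together held 50% of the counts numbered 115, 440, 420, and 439 in WT replicates 1 to 4, and the 10 highest genes of each sample held 38.7, 25.7, 25.6, and 25.5%. The 100 highest held 41.4% ± 5.28 (SD, n = 4), with WT replicate 1 at 49.4% and the others between 38.6% and 39.0%. Among nuclear protein-coding genes alone the counts were more even and the samples closer, with 50% of the counts on 1252, 1109, 1062, and 1117 genes. The concentration in WT replicate 1 was thus seen with noncoding and mitochondrial genes included and not without them. Between 15793 and 16135 genes exceeded 1 CPM in a sample.

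Ranked by mean CPM, a scale that favors long genes, the first 5 places went to noncoding RNA. They were mt-Rnr2, the large mitochondrial ribosomal RNA, at 143230.0 ± 35382 CPM (SD, n = 4), the 7SL genes Rn7s1 (39287 CPM) and Rn7s2 (38682 CPM), mt-Rnr1, the small mitochondrial ribosomal RNA (11079 CPM), and Rn7sk, the 7SK RNA (10927 CPM). Rn7s1 and Rn7s2 are identical over their 300 bases, so reads cannot be assigned to 1 of them, and their sum of 77969 CPM is the firmer value. Further noncoding RNAs among the 25 highest were Malat1, a nuclear RNA (rank 9), Rn7s6 (rank 11), Rpph1, the RNA of ribonuclease P (rank 13), and Gm24447 and Gm26315 (ranks 23 and 25). The highest gene that codes for protein was Hbb-bs, an adult beta globin, at rank 6, and the collagen I chains Col1a2 and Col1a1 followed at ranks 7 and 8. The remaining places were held by the globins Hba-a1, Hba-a2, and Hbb-bt (ranks 10, 12, and 16) and by mt-Co1, a subunit of cytochrome oxidase (rank 14). They also went to the neutrophil proteins S100a9 and S100a8 (ranks 15 and 24), cytoplasmic actin Actb (rank 17), the elongation factor Eef1a1 (rank 20), and 4 matrix genes. These were Col3a1, the collagen III chain (rank 18), Sparc, the bone matrix protein osteonectin (rank 19), Fn1, fibronectin (rank 21), and Col2a1, the collagen II chain of cartilage (rank 22). Blood, bone, and fibrous matrix thus stood in the list of a sample labelled cartilage, with 1 cartilage-specific gene among the 25.

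The order changed once counts were divided by exon length and scaled to the same total as CPM in each sample, which gives the length-scaled level used to compare genes with each other. Among nuclear protein-coding genes the first 8 were then all of blood origin by their known expression. They were Hbb-bs (17364 ± 6724, SD, n = 4), Hba-a2 (11789), S100a9 (11339), Hba-a1 (11097), Hbb-bt (8250.1), S100a8 (5165), the lysozyme gene Lyz2 of myeloid cells (2464), and the neutrophil granule gene Ngp (2223). Actb (2066), Eef1a1 (1672), Col1a1 (1649), Camp, the cathelicidin of neutrophil granules (1358), and Sparc (1112) came next on this scale. The last 7 of the 20 highest were 5 replication-dependent histone genes (H4c6, H2bc18, H2bc15, H4c8, and H4c12, between 914 and 1062), the actin-binding Tmsb4x (974), and Col1a2 (949). Col2a1 had a length-scaled level of 416 ± 55.8 (rank 60 of nuclear protein-coding genes). Acan, which encodes aggrecan, had 109 ± 19.2 (rank 258).

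**Figure D2:**
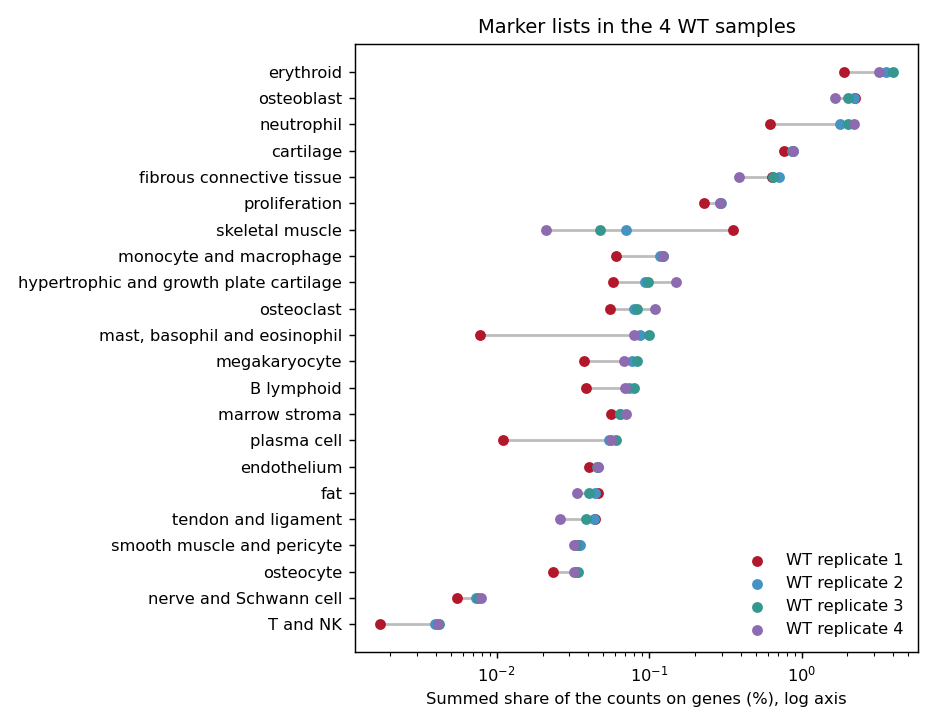
Each point is 1 WT sample and gives the summed share of the counts on genes, in percent on a log axis, of a list of marker genes, and the grey line spans the 4 samples. Erythroid, osteoblast, and neutrophil lists take the most counts, and skeletal muscle (0.0211% to 0.353%) and mast cell, basophil, and eosinophil genes (0.00779% to 0.100%) have the longest lines.

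To describe tissue programs, 23 lists of marker genes, 247 genes found of 248, were summed. Together they took 7.29, 10.4, 10.8, and 9.57% of the counts in WT replicates 1 to 4, so most counts lay on genes outside the lists. Such genes can also belong to a tissue, as do Lyz2 of myeloid cells and Sparc of bone matrix. The 9 marrow lists took 5.25% ± 1.70 (SD, n = 4), the 3 bone lists 2.15% ± 0.257 (SD, n = 4), and both cartilage lists 0.948% ± 0.0885 (SD, n = 4). Muscle took 0.123% ± 0.154 (SD, n = 4), vessel 0.0785% ± 0.00251 (SD, n = 4), and fat 0.0410% ± 0.00552 (SD, n = 4). The muscle value rests on WT replicate 1, without which it was 0.0463%, below the vessel lists. The lists differ in length and in the exon lengths of their genes, so a share of counts is no share of cells, and in bulk RNA fewer cells of a type and less RNA per cell cannot be told apart.

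The label was checked against cartilage first. The 21 cartilage genes took 0.762, 0.883, 0.872, and 0.875% of the counts in WT replicates 1 to 4, and 20 of them had a mean of at least 10 CPM. Only Matn1, a matrilin, lay below, at 1.09, 3.15, 3.96, and 3.92 CPM. Col2a1 had 3002, 3142, 3096, and 2815 CPM in WT replicates 1 to 4 and held 35.7% of the list's counts. In CPM all 4 samples were within a narrow band for this gene. Its SD was 0.0702 on the log2(CPM + 1) scale, on which all SDs of single genes are given below. The band was wider on the length-scaled level, at 346, 470, 451, and 396 in WT replicates 1 to 4, with a log2 SD of 0.20. Acan had 579, 626, 610.1, and 736 CPM, highest in WT replicate 4, and an SD of 0.15. After Col2a1 the highest length-scaled levels of the list belonged to Comp, a pentameric matrix protein also found in tendon (256), the cytokine-like Cytl1 (235), and Cilp, the cartilage intermediate layer protein (175). The surface lubricant Prg4, made by superficial chondrocytes and synovium, had 659, 526, 409, and 517 CPM, and Sox9, the transcription factor that keeps the chondrocyte fate, 23.3, 16.1, 14.8, and 14.1 CPM. As a share of nuclear protein-coding counts the list took 1.34, 1.23, 1.21, and 1.23%, so WT replicate 1 was lowest on all counts and highest on these. Cartilage markers were thus present in every sample at similar summed levels.

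The collagens that share a fibril with collagen II were compared as ratios of length-scaled levels within a sample. Col2a1 stood at 3.86 (range 3.09 to 4.19) times Acan. The ratio of Col9a1 to Col9a2 was 0.816 (range 0.657 to 0.914), that of Col9a3 to Col9a2 was 0.678 (range 0.630 to 0.758), and that of Col11a1 to Col11a2 was 0.542 (range 0.462 to 0.590). In these 3 pairs the log2 ratio had SDs of 0.21, 0.11, and 0.15 between samples. Each varied less than the length-scaled level of either of its genes. In log2(CPM + 1), however, Col11a2 had an SD of 0.0797, smaller than that of its ratio. Within the list the spread was uneven. On the log2(CPM + 1) scale Col2a1 varied least. Epyc, a small proteoglycan of growth plate and joint cartilage, varied most, with 5.54, 16.1, 17.3, and 19.2 CPM and an SD of 0.75. Matn3, a matrilin, had 41.1, 105, 116, and 108 CPM, and Cnmd, the chondromodulin that keeps vessels out of cartilage, had 41.1, 97.6, 112, and 113 CPM. Col9a1, a chain of collagen IX, had 151, 297, 318, and 347 CPM. These genes were lowest in WT replicate 1 and close together in the other 3. Without WT replicate 1 the SDs of Epyc, Matn3, Cnmd, and Col9a1 were 0.12, 0.0724, 0.12, and 0.11, and Cytl1, at 140.2, 160.3, 171, and 301 CPM, had the largest SD of the list, 0.50.

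Genes of hypertrophic and growth plate cartilage took 0.0579, 0.0940, 0.0987, and 0.150% of the counts. Col10a1, the collagen X of hypertrophic chondrocytes, had 306, 612, 668, and 1117 CPM and was lowest in WT replicate 1 and highest in WT replicate 4. Its length-scaled level relative to Col2a1 was 0.671 (range 0.301 to 1.17), so the pair of collagens that separates hypertrophic from other chondrocytes kept no constant proportion across samples. The signal Ihh of prehypertrophic cells (2.09, 4.71, 5.47, and 7.98 CPM) and the channel Panx3 (14.2, 26.2, 23.4, and 34.1 CPM) were likewise highest in WT replicate 4. Mmp13, a collagenase of hypertrophic chondrocytes and osteoblasts, had 201, 232, 223, and 269 CPM (SD 0.17) and Pth1r, the receptor for parathyroid hormone and its related peptide, 55.4, 65.9, 66.7, and 69.2 CPM (SD 0.14), the smallest spread of these 5 genes.

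Osteoblast genes took 2.26, 2.22, 2.02, and 1.65% of the counts, 2.04% on average, of which Col1a2 held 45.4%. Col1a1 had 11617, 8901, 7448, and 6609.8 CPM and Col1a2 9359.9, 10482, 9785, and 7349 CPM. Both were lowest in WT replicate 4, but only Col1a1 was highest in WT replicate 1, and the ratio of their length-scaled levels was 1.78 (range 1.44 to 2.35). Collagen I is also made by fibroblasts and tendon cells, so the genes restricted to bone were read beside it. Bglap, which encodes osteocalcin, the noncollagenous protein secreted by mature osteoblasts, had 186, 418, 473, and 285 CPM, highest in WT replicates 2 and 3 and lowest in WT replicate 1. Its length-scaled level relative to Col1a1 was 0.450 (range 0.170 to 0.674). Bglap has 618 bases of exon and Col1a1 6563, and whether exon length plays a part in this ratio was not tested. On the length-scaled level Spp1, osteopontin (749.5), stood with Bglap (721) below Col1a1 and Col1a2. Ibsp, bone sialoprotein, had 325, 650.4, 675, and 502 CPM, and Sp7, the osteoblast transcription factor osterix, 34.2, 41.9, 40.4, and 38.9 CPM, with the smallest SD of the list (0.12). Bglap2 had the largest (0.67).

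Osteocalcin is encoded by neighbouring copies, and their coding sequences are shown because counts of such copies depend on how reads that match both were assigned. In GRCm38, Bglap lies at chr3:88383501-88384464 and Bglap2 at chr3:88377736-88378699, both on the minus strand. Their coding sequences of 288 bases differ at 4 bases, set in capitals below, and Bglap3, the third gene of the cluster, differs from Bglap at 13.
Bglap: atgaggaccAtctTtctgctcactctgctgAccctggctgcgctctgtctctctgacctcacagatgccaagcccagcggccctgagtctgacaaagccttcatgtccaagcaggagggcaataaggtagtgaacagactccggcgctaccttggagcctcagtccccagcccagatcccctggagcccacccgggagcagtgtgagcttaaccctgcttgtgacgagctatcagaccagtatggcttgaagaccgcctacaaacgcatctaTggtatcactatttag
Bglap2: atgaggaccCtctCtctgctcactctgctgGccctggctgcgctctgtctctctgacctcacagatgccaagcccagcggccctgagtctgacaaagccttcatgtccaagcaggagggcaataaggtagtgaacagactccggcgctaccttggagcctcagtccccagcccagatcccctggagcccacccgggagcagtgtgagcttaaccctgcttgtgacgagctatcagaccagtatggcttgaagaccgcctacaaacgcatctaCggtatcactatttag
Bglap2 had 127, 316, 361, and 217 CPM and Bglap3 80.1, 197, 224, and 135 CPM. The ratio of the length-scaled levels of Bglap2 and Bglap was 0.973 (range 0.896 to 1.00), with a log2 SD of 0.0786 for the ratio against 0.77 for the length-scaled level of Bglap, so the copies differed between samples in parallel. Whether this is shared expression or shared reads was not tested.

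Osteocyte genes took 0.0235, 0.0332, 0.0341, and 0.0321% and osteoclast genes 0.0555, 0.0792, 0.0832, and 0.109% of the counts. Mepe, a matrix phosphoglycoprotein, had the highest length-scaled level of the osteocyte list (60.9), followed by Dmp1, dentin matrix protein (34.8), the Wnt inhibitor Sost (23.2), and the endopeptidase Phex (20.1). Dmp1, at 84.7, 75.8, 68.9, and 75.0 CPM, had the smallest SD of these (0.12) and Mepe, at 38.2, 88.3, 98.7, and 88.1 CPM, the largest (0.62). Among osteoclast genes the collagen-degrading protease Ctsk had 166, 246, 269, and 356 CPM and the acid phosphatase Acp5 128, 232, 251, and 361 CPM. Both were lowest in WT replicate 1 and highest in WT replicate 4, and all 11 genes of the osteoclast list were highest in WT replicate 4, as were 27.0% of all genes with a mean of at least 10 CPM. The proton pump subunits Tcirg1 (29.5) and Atp6v0d2 (17.4) followed on the length-scaled level. The chloride transporter Clcn7 had the smallest SD of the list (0.13).

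Erythroid genes took 1.90, 3.61, 3.97, and 3.23% of the counts in WT replicates 1 to 4, the largest share of any list in WT replicates 2 to 4 and the next after osteoblast genes in WT replicate 1. Hbb-bs alone had 5547, 11708, 12942, and 10653 CPM and held 31.8% of the list. WT replicate 1 was lowest and the other 3 were close. The globin chains kept their proportions across samples. The length-scaled level of Hba-a1 was 0.638 (range 0.610 to 0.655) times that of Hbb-bs, with a log2 SD of 0.0453, while the length-scaled levels of Hba-a1 and Hbb-bs themselves had log2 SDs of 0.72 and 0.72. Outside the globins, Alas2, the first enzyme of heme synthesis in red cells, had 368, 606, 639.8, and 542 CPM and Slc4a1, the band 3 anion exchanger of the red cell membrane, 940.1, 1152, 1147, and 1069.8 CPM. Sptb, a spectrin chain of the red cell skeleton, was highest in WT replicate 1 (389.8, 339, 305, and 329 CPM). Members of this list thus did not share 1 pattern in CPM over the samples. They also differ in exon length, with 12147 bases for Sptb and 768 for Hbb-bs. Short genes were low and long genes high in WT replicate 1, as given below, and the part of exon length here was not tested. Tspan33, a tetraspanin, had the smallest SD (0.0442) and Car1, the red cell carbonic anhydrase, the largest (0.68).

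The adult globins are pairs of nearly identical genes, and the stretches that tell them apart are shown with the base that differs in capitals. Hba-a1 (chr11:32283511-32284465) and Hba-a2 (chr11:32296489-32297298) lie on the plus strand, and their coding sequences of 429 bases differ at 1 base. Bases 321 to 429 are given.
Hba-a1: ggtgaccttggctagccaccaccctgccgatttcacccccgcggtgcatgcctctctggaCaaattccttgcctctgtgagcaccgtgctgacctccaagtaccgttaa
Hba-a2: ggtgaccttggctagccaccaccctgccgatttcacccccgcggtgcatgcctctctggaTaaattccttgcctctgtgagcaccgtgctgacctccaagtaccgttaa
Hbb-bs (chr7:103826534-103828096) and Hbb-bt (chr7:103812524-103813996) lie on the minus strand and their coding sequences of 444 bases also differ at 1 base. Bases 357 to 444 are given.
Hbb-bs: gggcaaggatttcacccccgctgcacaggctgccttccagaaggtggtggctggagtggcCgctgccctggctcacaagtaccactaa
Hbb-bt: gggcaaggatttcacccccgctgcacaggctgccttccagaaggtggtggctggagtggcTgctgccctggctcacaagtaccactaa
Hba-a1 had 3766, 8002, 8959, and 6866 CPM, Hba-a2 3442, 6969, 7807, and 5889 CPM, and Hbb-bt 2519.6, 4955, 5609, and 4710.3 CPM. The ratio of length-scaled levels was 0.936 (range 0.899 to 0.958) for Hba-a1 to Hba-a2 and 0.479 (range 0.462 to 0.496) for Hbb-bt to Hbb-bs, and both were nearly constant. Reads from the identical parts of a pair cannot be assigned to 1 copy, so the sums of 7208, 14971, 16766, and 12755 CPM for alpha globin and 8067, 16663, 18551, and 15364 CPM for beta globin are the firmer values.

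Neutrophil genes took 0.621, 1.78, 2.01, and 2.21% of the counts. S100a8, a calcium-binding subunit of calprotectin, had 813, 2844, 3391, and 3831 CPM and its partner S100a9 1452, 4788, 5567, and 6173 CPM. Each was lowest in WT replicate 1 and highest in WT replicate 4, and their ratio was 0.448 (range 0.421 to 0.467). All 19 genes of the list were lowest in WT replicate 1, as were 68.1% of all genes with a mean of at least 10 CPM. The genes for the primary granules of early precursors, Mpo (344, 838, 902, and 888 CPM) and Elane (88.3, 217, 242, and 239.8 CPM), kept a ratio of length-scaled levels of 0.918 (range 0.894 to 0.940). Mpo relative to S100a8, an early against a late neutrophil gene, was 0.0616 (range 0.0470 to 0.0856), highest in WT replicate 1 and lowest in WT replicate 4. Mpo has 3424 bases of exon and S100a8 694, and short genes were low in WT replicate 1, as given below. The part of exon length in this ratio was not tested. The receptor Csf3r, at 159, 203, 203, and 218 CPM, had an SD of 0.20, the smallest of the list, and S100a8 the largest (1.03).

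The other marrow lists were smaller. B lymphoid genes took 0.0387, 0.0742, 0.0800, and 0.0690%, megakaryocyte genes 0.0376, 0.0773, 0.0834, and 0.0688%, and monocyte and macrophage genes 0.0604, 0.118, 0.124, and 0.124%. Ighm, the constant region of IgM, led the B lymphoid list with 175, 406, 443, and 404 CPM, and the receptor subunits Cd79a and Cd79b stood at a ratio of 0.543 (range 0.510 to 0.583). Vpreb3, a protein of B cell precursors, came after them at a length-scaled level of 19.8. Pax5, the B cell transcription factor, varied least of the list (37.6, 45.4, 43.7, and 42.4 CPM, SD 0.12). Chemokines of platelet granules led the megakaryocyte list, Ppbp with 137, 392, 429.6, and 333 CPM and Pf4 with 49.2, 109, 121, and 99.5 CPM. They stood ahead of the integrin chain Itga2b (length-scaled level 32.0) and the receptor subunit Gp9 (30.7). Ly6c2, a marker of inflammatory monocytes, led the monocyte and macrophage list with 77.9, 241, 265, and 277 CPM and varied most (SD 0.87). The complement subunits C1qa and C1qb of tissue macrophages kept a ratio of 1.32 (range 1.31 to 1.35), with an SD of 0.0199 on the log2 scale, the smallest of the 24 pairs examined. Cd68, a lysosomal protein of macrophages, came after them at a length-scaled level of 48.5, and Mrc1, the mannose receptor, varied least (SD 0.21).

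T and NK cell genes took between 0.00173% and 0.00417%, and Nkg7, a protein of cytotoxic granules, held 47.0% of that. The T cell receptor subunits Cd3e (0.614, 0.861, 0.822, and 0.917 CPM) and Cd3g (0.614, 1.65, 1.81, and 1.85 CPM) were above the floor in every sample but low. Genes of the marrow stroma took 0.0559, 0.0649, 0.0642, and 0.0705%. Cxcl12, the chemokine that holds blood stem cells in the marrow, had 396, 457, 452, and 501 CPM, with the leptin receptor Lepr (length-scaled level 15.5), the stem cell factor Kitl (11.5), and Foxc1 (5.73) after it. This list varied little, with SDs from 0.0487 for Kitl to 0.24 for Lepr. Proliferation genes took 0.229, 0.298, 0.292, and 0.294%, led by Mki67 (1519.6, 1831, 1739, and 1818 CPM), a protein of dividing cells, and Top2a (425, 640.2, 652, and 628 CPM), the topoisomerase of replicating DNA. Rrm2, a subunit of ribonucleotide reductase (length-scaled level 72.0), and the cyclin Ccnb1 (25.8) completed the 4 highest, Mki67 varied least (SD 0.12), and Ccnb1 varied most (SD 0.51).

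Eosinophil and plasma cell genes had the widest spread among the blood lists. Mast cell, basophil, and eosinophil genes took 0.00779, 0.0872, 0.100, and 0.0797% of the counts. Prg2, the major basic protein of eosinophil granules, had 43.2, 625, 722, and 580.3 CPM and Epx, eosinophil peroxidase, 8.78, 178, 205, and 156 CPM. Both were low in WT replicate 1 and within a narrow band in the other 3, with SDs of 1.93 and 2.11 over 4 samples and 0.16 and 0.20 over the other 3. The basophil protease genes Prss34 (14.1, 37.4, 42.7, and 33.8 CPM) and Mcpt8 (5.77, 20.6, 20.7, and 17.6 CPM) were also lowest there, with smaller SDs of 0.70 and 0.81. Of the mast cell protease genes, named after their values were seen, Mcpt4, Cma1, and Tpsb2 did not follow them. Cpa3 did, being lowest in WT replicate 1 and highest in WT replicate 3, like Prg2 and Epx. Mcpt4 had 0.767, 0.651, 0.505, and 0.372 CPM, Cma1 had 0.805, 0.581, 0.565, and 0.252 CPM, and Tpsb2 had 0.786, 0.501, 0.454, and 0.133 CPM, each lowest in WT replicate 4. Plasma cell genes took 0.0111, 0.0544, 0.0604, and 0.0559%. Igha, the constant region of IgA, had 77.2, 301, 328, and 229.9 CPM, and Ighg2b, that of IgG2b, had 4.05, 106, 119, and 169 CPM. Jchain, the chain that joins IgA and IgM units, had 24, 91.6, 104, and 87.4 CPM, and Ighg2c, the constant region of IgG2c, had 0.786, 27.9, 30.3, and 52.9 CPM. Each of the 4 was lowest in WT replicate 1. SDs in this list ran from 0.96 for Igha to 2.36 for Ighg2b, and without WT replicate 1 those of both genes were 0.27 and 0.35.

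**Figure D3:**
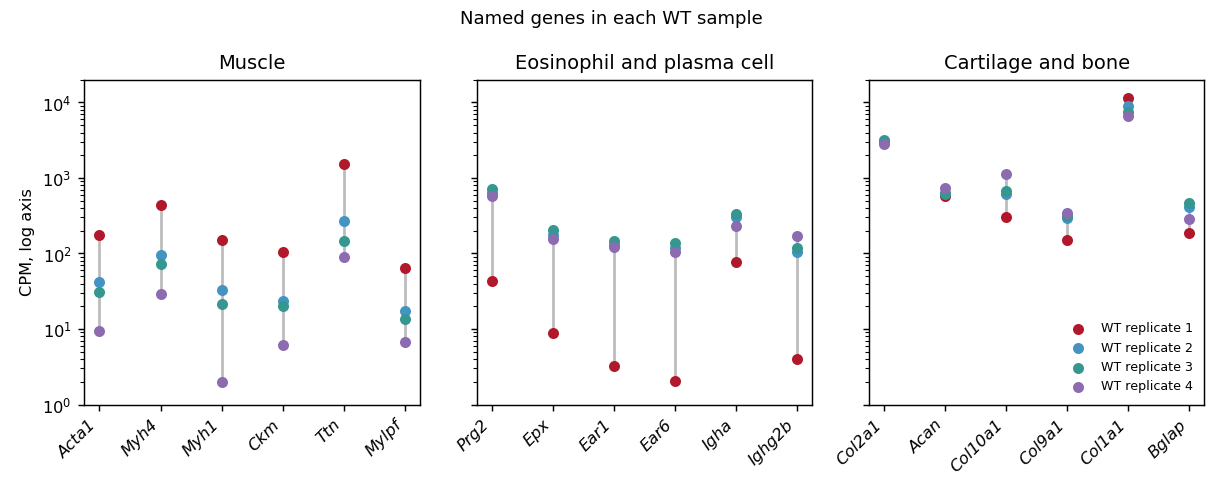
Points give CPM on a log axis for 6 genes each of muscle, of eosinophils and plasma cells, and of cartilage and bone, with 1 color per WT sample and a grey line from the lowest to the highest sample. Muscle genes are highest in WT replicate 1 and lowest in WT replicate 4, eosinophil and plasma cell genes are low in WT replicate 1 alone, and Col2a1 lies between 2815 and 3142 CPM.

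Skeletal muscle had the largest fold between samples of the lists, 16.7, with 0.353, 0.0701, 0.0476, and 0.0211% of the counts in WT replicates 1 to 4. Acta1, the actin of the muscle thin filament, had 177, 41.6, 31.2, and 9.27 CPM and Ckm, muscle creatine kinase, 106, 23.3, 20.4, and 6.08 CPM. Of all 24 muscle genes, 22 were highest in WT replicate 1 and lowest in WT replicate 4, the exceptions being the slow-fiber genes Tnnt1 and Tnni1. Of all genes with a mean of at least 10 CPM, 20.1% were highest in WT replicate 1 and 10.6% lowest in WT replicate 4. The list's share still differed 3.31-fold between the highest and lowest of WT replicates 2 to 4, and as a share of nuclear protein-coding counts 3.28-fold. By counts Ttn, the giant elastic protein titin, led with 1535, 269, 148, and 90.4 CPM, 38.9% of the list. By length-scaled level it was Acta1 (48.8), followed by Myh4, the myosin heavy chain of the fastest fibers (30.3), the light chain Mylpf (28.1), and the troponin Tnnt3 (26.8). The ratio of Acta1 to Ckm was 3.09 (range 2.89 to 3.39), so the pair kept its proportion over samples whose levels differed widely. Eno3, muscle enolase, varied least of the list (SD 1.00) and Myh1 most (2.34).

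Among the myosin heavy chains those of fast fibers had the highest length-scaled levels. Myh4 stood at 6.31 (range 3.01 to 15.6) times Myh1, the chain of type IIx fibers, on the length-scaled level, and Myh2, of type IIa, at 0.194 (range 0.124 to 0.257) times Myh1. In WT replicate 4 Myh1 had 1.98 CPM against 29.3 CPM for Myh4, and that sample gave the highest of the 4 ratios of Myh4 to Myh1. The slow-fiber genes Myh7, a myosin chain, and Tnni1, a troponin, were at or near the floor of 3 counts, with 7, 7, 3, and 0 counts of Myh7 and 0, 5, 10, and 0 of Tnni1. The slow troponin Tnnt1, named after its values were seen, had 1.65, 2.48, 2.28, and 3.23 CPM and did not follow the other muscle genes, being highest in WT replicate 4.

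Fat and vessel genes also took small shares, which differed less between samples than the share of muscle genes. The vessel lists together took less than muscle in WT replicate 1 and more in WT replicates 2 to 4. Fat genes took more than muscle in WT replicate 4 alone. Fat genes took 0.0463, 0.0441, 0.0401, and 0.0337% of the counts, led on the length-scaled level by Cfd, adipsin (135), the carbonic anhydrase Car3 (80.2), the hormone adiponectin, Adipoq (36.6), and Plin4, a protein of lipid droplets (9.30). Adipoq had 38.0, 40.9, 41.0, and 38.4 CPM, the smallest SD of the list (0.0575), and Plin4, at 64.6, 43.8, 32.7, and 31.9 CPM, the largest (0.46). The ratio of Adipoq to Plin1, another lipid droplet gene, was 10.7 (range 7.82 to 12.8), lowest in WT replicate 1. On the log2 scale this ratio varied more (SD 0.31) than the length-scaled level of either gene. Of all 11 fat genes, 6 were highest in WT replicate 1 and lowest in WT replicate 4, as most muscle genes were. In WT replicate 4, 9 of the 11 were lowest, as were 10.6% of all genes with a mean of at least 10 CPM. As a share of nuclear protein-coding counts the fat list differed 1.71-fold, and Car3 held 44.1% of its counts. Endothelial genes took 0.0406, 0.0463, 0.0453, and 0.0463%. Pecam1 had 56.9, 75.6, 76.7, and 68.6 CPM and Cdh5, the cadherin of endothelial junctions, 35.9, 43.8, 41.9, and 43.4 CPM, at a ratio of length-scaled levels of 1.13 (range 1.07 to 1.24). Stab2, a scavenger receptor of sinusoids, held the most counts of the list (71.8, 70.3, 66.7, and 81.5 CPM), and the secreted Egfl7 varied least (30.1, 30.9, 32.2, and 29.8 CPM, SD 0.0480). The receptor Tek varied most, with an SD of 0.23. Smooth muscle and pericyte genes took 0.0348, 0.0353, 0.0331, and 0.0322%, led by Rgs5 of pericytes (length-scaled level 33.6), Pdgfrb (18.8), the smooth muscle actin Acta2 (10.1), and Abcc9 (9.48). Pdgfrb varied least (SD 0.0429) and Notch3 most (0.34).

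Fibrous and tendon genes took the smallest share in WT replicate 4. Genes of fibrous connective tissue took 0.643, 0.707, 0.653, and 0.389% and those of tendon and ligament 0.0439, 0.0432, 0.0388, and 0.0261%. Col3a1, collagen III, had 4713, 4827, 4338, and 2387 CPM. Lum, the proteoglycan lumican, had 391, 549.6, 524, and 320.0 CPM and Dpt, dermatopontin, had 118, 119, 115, and 65.3 CPM. These 3 were lowest in WT replicate 4, whereas Dcn, the proteoglycan decorin, was low in both WT replicates 1 and 4 (827, 1184, 1193, and 840.1 CPM). Col3a1 varied most among those with a mean of at least 10 CPM (SD 0.48) and Pdgfra, a receptor of fibroblasts, least (0.17). Among tendon genes Fmod, fibromodulin, had 247, 303, 280.4, and 182 CPM and Thbs4, a thrombospondin, had 148, 101, 83.6, and 66.8 CPM. Tnmd, tenomodulin, had 14.3, 7.45, 5.69, and 3.11 CPM and Kera, keratocan, had 21.3, 13.2, 11.0, and 4.41 CPM. These 4 were also lowest in WT replicate 4. Among the 3 genes of this list with a mean of at least 10 CPM, Fmod had the smallest SD (0.32) and Kera the largest (0.85). Kera reached that mean only through its value in WT replicate 1, which also enters its SD. The summed muscle, tendon, and fibrous lists were thus lowest in the sample in which Col10a1, Acp5, and S100a8 were highest. Nerve and Schwann cell genes took between 0.00548% and 0.00794%, mostly on the myelin gene Mbp (39.7, 55.7, 57.0, and 62.8 CPM). On the length-scaled level Mbp (8.19) was followed by Ncmap (4.83) and Prx (0.906), both of myelinating Schwann cells. Genes of skin keratinocytes were at or near the floor. Krt5, Krt14, and Krtdap had 0 counts and Krt1 at most 2, which allows up to 0.0575 CPM in the shallowest sample. Lor had at most 5 counts and Krt10, which was above the floor in every sample, had 0.403, 0.461, 0.591, and 0.306 CPM.

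The spread over samples was then taken gene by gene. Over the 9840 genes with a mean of at least 10 CPM, the median SD was 0.20, from 0.0699 at the 10th to 0.43 at the 90th percentile, whereas counting error alone would give a median of 0.0261. An SD above 0.5 was found for 552 genes and above 1 for 52. WT replicate 1 was the lowest of the 4 samples for 68.1% of the genes and the highest for 20.1%. Without it the median SD fell to 0.0705, and 43 of 9896 genes had an SD above 0.5. Most of the spread among WT samples thus came with a single library.

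**Figure D4:**
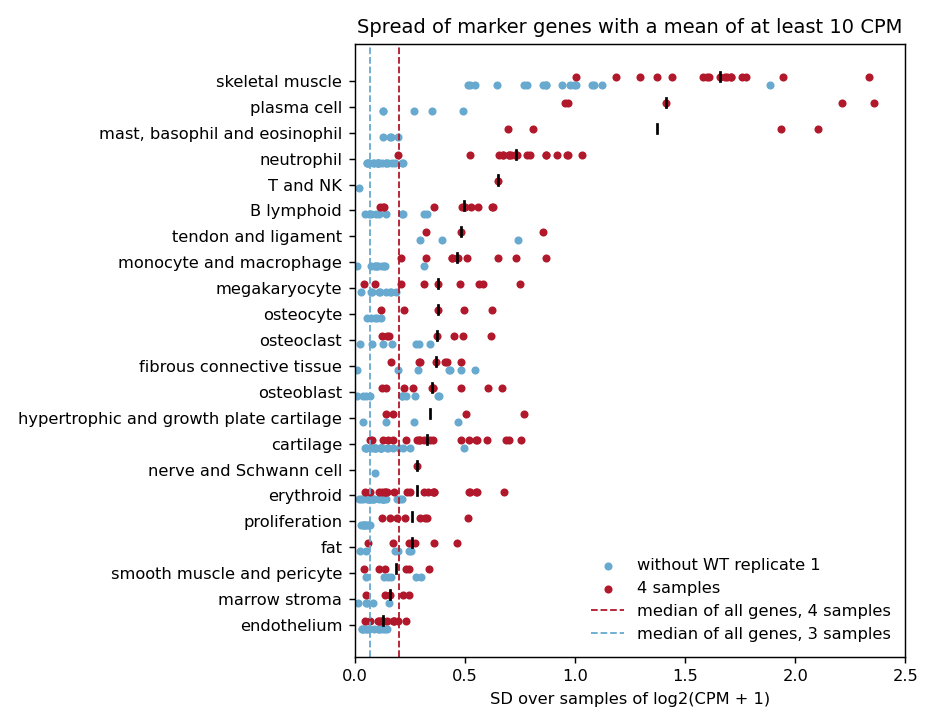
Each point is 1 marker gene with a mean of at least 10 CPM, placed by its SD over samples of log2(CPM + 1), in red over the 4 WT samples and in blue without WT replicate 1. Short black lines mark the median of a list over the 4 samples, and dashed lines the median of all genes (0.20 and 0.0705). Muscle genes lie to the right in both colors, whereas plasma cell, eosinophil, and neutrophil genes lie far to the right in red alone. Of the muscle genes shown, 5 reached that mean only with WT replicate 1.

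Of the 100 genes with the largest SD, 36 belonged to a marker list, against 190 of all 9840 genes. They included 17 of the 24 muscle genes, of which 5 reached the minimum of 10 CPM only through the WT replicate 1 value that also raised their SD. They also included 5 of 5 plasma cell genes at that minimum, 3 of 4 mast cell, basophil, and eosinophil genes, and 8 of 19 neutrophil genes. None of the 20 cartilage, 10 osteoblast, 20 erythroid, 6 fat, or 13 endothelial genes at that minimum was among the 100. At 100 of 9840 genes, lists this short could give few or none by share alone, so these zeros do not show steadiness. By annotation, 10 of 12 immunoglobulin genes were included. WT replicate 1 was the lowest sample for 58 of the 100 and the highest for 34, and WT replicate 4 was the lowest for 30. The gene at place 100 had an SD of 0.766 and the next 0.765, so the list has no natural end. The 25 highest fell into 3 groups. The first was muscle, with Myh1 (150.0, 33.0, 21.7, and 1.98 CPM, SD 2.34), Xirp2, a protein of the fiber junction (99.3, 19.6, 11.6, and 2.22 CPM, SD 2.05), Myh2, Ttn, Neb, Myl1, Tnnt3, Acta1, Pvalb, Atp2a1, and Ckm. The second was eosinophil and plasma cell genes. Among them the eosinophil ribonuclease genes Ear6 and Ear1 had 2.03, 118, 136, and 105 CPM (SD 2.66) and 3.26, 131, 146, and 122 CPM (SD 2.49), and Ear2 had 7.0, 114, 128, and 104 CPM (SD 1.93). They were joined by the pseudogene Ear-ps9, Epx, Prg2, Prg3, the lipoxygenase Alox15 (2.53, 39.5, 44.5, and 47.8 CPM), Ighg2b, and Ighg2c. The third was 4 other annotated genes that share exon positions with another on the same strand, namely both Rnu3a genes, H2ac18, and Gm28036. Ear1 and Ear-ps9 of the second group also share exon positions with each other, and their sum had an SD of 2.55.

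The largest SDs of all belonged to Rnu3a, the U3 RNA that guides cleavage of the ribosomal RNA precursor, which is annotated as 2 genes on the same place of GRCm38, chr10:40258467-40258679 and chr10:40258467-40258680, plus strand. Both are printed whole, since they differ by 1 base at the end. The capital marks the extra base as the alignment placed it.
ENSMUSG00000106147: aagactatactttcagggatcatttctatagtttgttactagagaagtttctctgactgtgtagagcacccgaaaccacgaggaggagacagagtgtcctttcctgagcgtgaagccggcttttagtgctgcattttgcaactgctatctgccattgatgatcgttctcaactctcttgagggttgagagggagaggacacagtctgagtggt
ENSMUSG00000065870: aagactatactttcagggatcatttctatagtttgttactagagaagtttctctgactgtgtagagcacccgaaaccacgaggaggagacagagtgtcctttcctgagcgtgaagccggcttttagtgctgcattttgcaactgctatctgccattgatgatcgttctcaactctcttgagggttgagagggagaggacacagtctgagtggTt
The first had 0.211, 198, 194, and 269 CPM in WT replicates 1 to 4 and the second 376, 0.190, 0.223, and 0.106 CPM. Nearly all counts of a sample lay on 1 of them, on the second in WT replicate 1 and on the first in the others. Their sum was 377, 198, 194, and 269.5 CPM, with an SD of 0.45 where the single entries had SDs of 3.76 and 4.17.

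The histone gene H2ac18 (chr3:96245497-96246082, plus strand) was the next of this kind. Its coding sequence of 393 bases is identical to that of H2ac19 (chr3:96239749-96240276, minus strand), and the first 300 bases, the same in both genes, are given once.
H2ac18: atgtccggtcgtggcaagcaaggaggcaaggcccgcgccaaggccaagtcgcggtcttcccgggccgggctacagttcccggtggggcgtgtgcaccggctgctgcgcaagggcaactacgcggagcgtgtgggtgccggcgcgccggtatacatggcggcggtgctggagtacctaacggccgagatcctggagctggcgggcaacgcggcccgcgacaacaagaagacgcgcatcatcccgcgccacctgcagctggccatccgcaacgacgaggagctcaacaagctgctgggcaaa
H2ac18 had 0.0192, 278, 55.0, and 199 CPM, from 1, 27709, 6421, and 14977 counts, and H2ac19 had 128, 306, 356, and 281 CPM. Exons of H2ac18 also overlap those of Gm20634, a noncoding transcript on the same strand, which had 149, 43.5, 487, and 186 CPM. The sum of the 3 genes was 277, 627, 898, and 666 CPM, with an SD of 0.73 against 3.72 for H2ac18 alone. Over all genes with a mean of at least 10 CPM, 9.54% shared an exon position with another gene on the same strand, as did 23 of the 100 most variable. The mitochondrial subunit gene mt-Co3 and the nuclear pseudogene Gm28437 on chromosome 1, which match over 99.9% of their aligned length, had 1554, 1337, 1291, and 1228 and 1551, 1334, 1289, and 1226 CPM. Each sample gave the pair almost equal values. The shares of mitochondrial coding genes and of pseudogenes given above depend in part on how reads that match both were assigned.

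Without WT replicate 1, 36 of the 100 most variable genes were the same. The 100 without that sample held 12 of the 24 muscle genes, the same number that reached a mean of 10 CPM over WT replicates 2 to 4. They also held 4 of 7 genes of fibrous connective tissue and 2 of 10 osteoblast genes. None of the 19 neutrophil or 4 mast cell, basophil, and eosinophil genes was held, and lists this short could give none by share alone. Among the 10 largest SDs were those of Myh1 (1.88), Gm20634 (1.74), Xirp2 (1.39), the immunoglobulin segment Ighv1-9 (1.30), Nnt, H2ac18, Acta1, Vps25, and Lars2. Ighv1-9 had 1.44, 4.91, 4.80, and 26.8 CPM and was highest in WT replicate 4. The mitochondrial leucyl-tRNA synthetase Lars2 had 28.1, 11.0, 10.5, and 39.8 CPM, high in WT replicates 1 and 4. Nnt, the mitochondrial transhydrogenase, had 14.2, 25.9, 6.37, and 36.9 CPM under 1 of its 2 entries, and both entries together had 31.4, 31.2, 28.1, and 45.9 CPM. Vps25, of the endosomal sorting complex, had 18.8, 28.1, 7.12, and 26.3 CPM and, summed with Ramp2, with which it shares exon positions, 26.6, 37.9, 39.0, and 35.5 CPM. The SD over WT replicates 2 to 4 fell from 1.25 to 0.36 for Nnt and from 1.04 to 0.0673 for Vps25 when the entries were summed.

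At the other end, the 10 steadiest of the 500 highest nuclear protein-coding genes had SDs between 0.0314 and 0.0467. Among them were the RNA-binding Hnrnpu (477, 491, 466, and 489 CPM) and Rbm5, the translation factor Eif4a2 (245, 251, 238, and 244 CPM), the splicing kinase Clk1, Tpt1, Ucp2, the centromere chaperone Hjurp, Dmxl1, and the amino acid transporter Slc38a2. Actb, often used as a reference gene, had 2040.2, 4743, 5207, and 4926 CPM and an SD of 0.64, and Eef1a1 an SD of 0.42. Both were lowest in WT replicate 1 and had SDs of 0.0677 and 0.0660 without it.

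**Figure D5:**
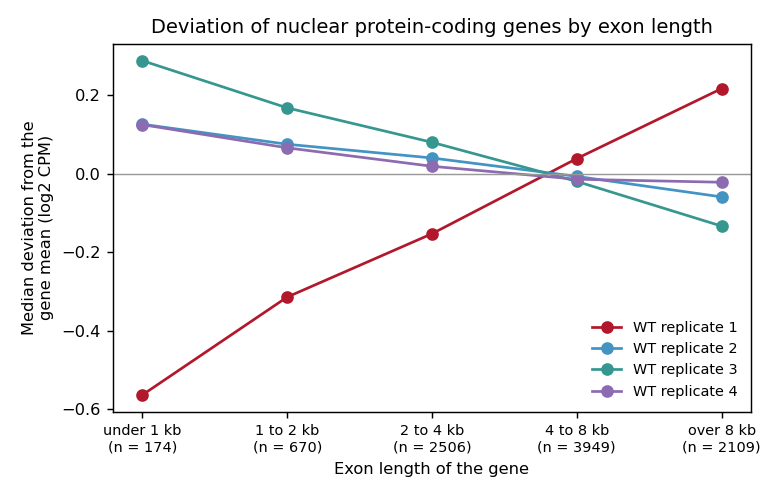
For nuclear protein-coding genes with a mean of at least 10 CPM, grouped by exon length, points give the median deviation of log2(CPM + 1) in a WT sample from the gene's mean over the 4 samples, less the sample's median over all of these genes. WT replicate 1 runs from -0.56 for the shortest genes to 0.22 for the longest. The other samples run the opposite way, which follows in part from deviations that sum to 0 over the 4 samples.

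Exon length moved with these differences. The 9408 nuclear protein-coding genes with a mean of at least 10 CPM were grouped by exon length, a property chosen after their values were seen. Genes under 1 kb had median log2 deviations from the gene mean of -0.56, 0.13, 0.29, and 0.13 in WT replicates 1 to 4 (n = 174 genes), genes of 2 to 4 kb -0.15, 0.04, 0.08, and 0.02 (n = 2506), and genes over 8 kb 0.22, -0.06, -0.13, and -0.02 (n = 2109). Short genes were thus low and long genes high in WT replicate 1. Across genes Spearman's rho between exon length and deviation was 0.57 in WT replicate 1, given as a description since the deviations of the 4 samples sum to 0. With deviations taken over WT replicates 2 to 4 alone, rho was 0.21, -0.55, and 0.31 in these samples. The median SD of a gene was 0.55 under 1 kb and 0.14 over 8 kb with all 4 samples, and 0.12 and 0.0795 without WT replicate 1.

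Each list was therefore also read against genes of like length. For every member the median deviation of its length class was subtracted, and the range of the list's median deviation over the 4 samples was taken before and after. The range went from 0.33 to 0.12 for cartilage, from 0.32 to 0.11 for erythroid, and from 0.74 to 0.34 for B lymphoid genes. It went from 1.29 to 1.00 for neutrophil genes, from 2.59 to 1.83 for mast cell, basophil, and eosinophil genes, and from 4.17 to 4.36 for muscle genes. The range shrank by more than 1.5 times in 8 of 19 lists, and muscle, eosinophil, and neutrophil genes kept most of theirs. It grew for marrow stroma (from 0.12 to 0.23), fat (from 0.70 to 0.84), and tendon and ligament (from 1.41 to 1.59) as it did for muscle. Of the 17 muscle genes used, 5 reached the minimum of 10 CPM only through a high WT replicate 1 value. The same holds for 1 of the 3 tendon and ligament genes. The ranges of both lists were therefore set in part by how their members were chosen. The part of exon length, of RNA quality, or of the amount of marrow or muscle taken with the cartilage in these differences was not tested.

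Over the 24 pairs of genes, 23 had counts in every sample. In 16 of these the log2 ratio varied less than the length-scaled level of either gene. A shift shared by the genes of a sample cancels in a ratio but not in a single level, which favors such a result. All 16 were pairs within 1 cell lineage, tissue, or protein complex, among them the near-identical copies of globin and osteocalcin genes. Nearly all pairs examined were chosen in this way. The remaining 7 held pairs within a tissue or protein as well (Col1a1 to Col1a2, Col2a1 to Acan, Col10a1 to Col2a1, Bglap to Col1a1, and Adipoq to Plin1) and both pairs across tissues. Hbb-bs to Col1a1, blood to bone, was 11.0 (range 4.08 to 14.8) on the length-scaled level, lowest in WT replicate 1. Col2a1 to Col1a1, cartilage to bone and fibrous tissue, was 0.258 (range 0.183 to 0.302), again lowest there. Hbb-bs has 768 bases of exon and Col1a1 6563, and the part of exon length in their ratio was not tested. Without WT replicate 1 the count of steadier ratios was 12. No test was run on these ratios, and with 4 pools these values describe the samples measured.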

How the data were processed

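Total RNA of 7 pooled knee samples was sequenced by the authors from both ends after depletion of ribosomal RNA, and the 4 WT samples were used here. Per the labels and Methods, the processing used cutadapt 2.5, HISAT2 2.1.0 with GRCm38, and StringTie 2.0.3. The authors deposited estimated counts per gene, derived from StringTie coverage, as whole numbers that are not normalized, for 55401 genes. How that coverage assigns reads shared by copies or overlapping genes fixes their split before this point. Gene types, positions, and union exon lengths came from GENCODE M21 (GRCm38), matched by identifier for 55141 genes. Symbols are those of the table. Counts were scaled to CPM. The length-scaled level is counts per kilobase of exon, scaled to the same total as CPM.

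SDs were taken over log2(CPM + 1) for genes with a mean of at least 10 CPM. No comparison between groups was made, and the one test used was Dixon's, for a sample far from the others. The members and lists were chosen with earlier results of these data known. Genes named are the highest and most and least variable, overall and by list, the genes of the pairs, and members under 3 counts, together with others said to be named after their values were seen. Alternatives were edgeR 4.0.16 and DESeq2 1.42.0 scaling in R 4.3.3, other denominators, filters, and measures of spread, and each sample left out. The ranking code was run on simulated counts in which genes varied independently, without an outlying sample, a length trend, or overlapping genes. That run checks the code and not the ranking of these data. Total counts ran from 52142451 to 116815517. Ahsp and protein sequences were not analysed here, and some genes that the naming rule picks are not reported here.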

Additional observations from a re-analysis of the deposited data

Results flagged for a closer look

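In 13 of 44 shares, levels, and counts examined, 1 of the 4 samples lay farther from its nearest neighbour, relative to the whole range, than Dixon's 95% limit for 4 samples allows. Chance flags about 1 in 20 groups of 4, and the values are not independent of each other. The far sample was WT replicate 1 in all 13. It was high for mitochondrial ribosomal RNA (21.3% of the counts), all mitochondrially encoded genes (22.5%), ribozyme genes (1.09%), the skeletal muscle list (0.353%), and the share of the 100 highest genes (49.4%). It was low for nuclear protein-coding genes (57.0%), immunoglobulin genes (0.0463%), and the lists of cartilage (0.762%), plasma cells (0.0111%), T and NK cells (0.00173%), monocytes and macrophages (0.0604%), and proliferation (0.229%). The fewest genes that held 50% of its counts were 115. As a share of nuclear protein-coding counts the direction for cartilage turned, with 1.34, 1.23, 1.21, and 1.23% in WT replicates 1 to 4, and proliferation genes were level, with 0.401, 0.414, 0.403, and 0.413%. This sample also had the lowest total count. Whether depth, RNA quality, or dissection played a part was not tested.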

How the results depend on the processing

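Shares depend on what they are shares of. With counts on genes that are not mitochondrially encoded as the denominator, the mean share was 1.01% for cartilage, 2.45% for osteoblast, 0.0494% for fat, and 0.0534% for endothelial genes. With nuclear protein-coding counts it was 1.25%, 3.04%, 0.0613%, and 0.0659%, and 4.60% for erythroid genes. As a share of the length-scaled level it was 0.219% for cartilage, 0.524% for osteoblast, 4.99% for erythroid, 2.43% for neutrophil, 0.0283% for fat, and 0.0111% for endothelial genes, a scale on which long genes count for less. Without its highest gene a list took 0.547% (cartilage), 1.11% (osteoblast), 2.16% (erythroid), 0.0230% (fat), and 0.0374% (endothelium). The mean number of genes that held 50% of the counts, 354, was 747 and 1135 with these denominators, and the share of the 100 highest, 41.4%, was 30.6% and 20.2%. For muscle, without WT replicate 1 the mean share went from 0.123% to 0.0463%.

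With a filter of more than 1 CPM in at least 2 samples, 48 of the 100 most variable genes were shared, since low genes entered the ranking. With the other scalings and measures of spread tried, between 70 and 91 were shared. With a sample left out the number shared was between 36 and 90 and the median SD between 0.0705 and 0.23, the lower ends without WT replicate 1. The number of pairs of genes whose ratio was steadier than either gene was between 12 and 17 with a sample left out. As ratios of counts, 20 of the 23 pairs moved by more than 1 SD, by construction, since exon lengths differ. For the spread taken within the pairs of near library numbers, the median SD was 0.20, with 0.24 in the pair that holds WT replicate 1 and 0.0720 in the other. The subtraction of length classes was chosen after seeing the data. No paired analysis was possible because no groups were compared. With 4 pools, small differences between samples cannot be told from chance.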
